A study of Mus musculus with 32 samples.

Results

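The 24 h response to aphidicolin (APH) was compared between an ATMIN knock-out line of mouse embryonic fibroblasts and a wild-type line, called wtATMIN in the labels. The labels do not say whether both lines share an origin, but their sex-linked transcripts, given below, differ. The comparison used 8 of the 32 RNA sequencing samples of the series, chosen by their labels: wtATMIN in DMSO, wtATMIN in APH, ATMIN knock-out in DMSO and ATMIN knock-out in APH, each for 24 h with 2 samples. APH was given at 1 µM and the other cells received DMSO alone. For each gene, the change from DMSO to APH on the log2 scale was taken in each line, and the change in wtATMIN was subtracted from the change in the knock-out. A negative difference of responses means that the transcript rose less, or fell more, in the knock-out, and a positive one the reverse. The series holds the same design at 4 h and in an ATM knock-out line with another wild-type line (wtATM), and these samples served for comparison. Each genotype is represented by 1 line, so the effect of ATMIN loss and other differences between the lines cannot be told apart. Nothing in the labels tells if both samples of a group came from separate cultures, and the p-values then measure only the spread between samples, which may be technical.

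APH inhibits the replicative DNA polymerases and so stalls replication forks. Stalled forks activate the kinase ATR and, where breaks form, the kinase ATM, and both can stabilise the transcription factor p53, which switches on genes of cell cycle arrest (Cdkn1a), of its own turnover (Mdm2) and of apoptosis (Fas, Perp). ATMIN has zinc fingers, interacts with ATM and helps to activate it, and it also acts as a transcription factor, with the dynein light chain gene Dynll1 as its best known target. DNA damage that persists can also raise inflammatory and interferon-stimulated genes, and the S-phase genes driven by E2F and the replication-dependent histone genes follow the share of cells in S phase.

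The 8 libraries held between 14721328 and 21020662 counted reads, and 18484 genes passed the filter on low counts. The samples of each group differed by more than counting noise, with a chi-square per degree of freedom of 5.08 for wtATMIN in DMSO and of 1.85 to 2.37 for the other 3 groups. Levels are given as CPM, the read count scaled to the normalised size of the library, and differences as log2 values ± SE. The SE was worked back from the test, as the absolute log2 value divided by the square root of its F statistic. Genes past 0.05 after Benjamini-Hochberg adjustment over all 18484 p-values of edgeR's quasi-likelihood test are termed called, and only for these is a rise or fall stated. The sums over cell type markers were instead scaled to the raw read total of each library. Of 12 fibroblast markers 11 were detected, with a summed level of 4012 to 5921 CPM in wtATMIN and 10722 to 16942 CPM in the knock-out. Summed epithelial, blood, endothelial and muscle markers lay between 0.498 and 22.9 CPM, adipocyte markers between 26.8 and 113 CPM, and neural markers, which include the widely expressed Nes and Tubb3, between 183 and 253 CPM. Fewer or more cells of a type and less or more RNA per cell cannot be told apart in such bulk samples. Xist, expressed from an inactive X chromosome, was at 930 to 1260 CPM in the 4 knock-out libraries and at 0.641 to 1.4 CPM in those of wtATMIN, and the Y-linked Ddx3y was at 0 to 0.262 CPM against 49.7 to 51.6 CPM. The knock-out thus had the pattern of female cells and wtATMIN that of male cells, so the lines do not appear to come from the same embryo. The part of sex and origin in the differences below was not tested.

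Atmin itself, which lies on chromosome 8, was at 20.7 and 20.4 CPM in wtATMIN in DMSO and at 5.2 and 5.81 CPM in the knock-out. In APH the values were 27.2 and 29.8 CPM against 6.77 and 6.65 CPM. The knock-out thus kept reads at the gene, with a log2 difference in DMSO of -1.90 ± 0.12 from wtATMIN, and the counts do not show which exons these reads cover. Dynll1, the dynein light chain gene named above, was at 202 and 192 CPM in wtATMIN and at 30.3 and 28.9 CPM in the knock-out in DMSO. In APH it stood at 205 and 206 CPM and at 46.5 and 44.5 CPM. It was far lower in the knock-out in both treatments. It rose there by 0.62 ± 0.08, the response of 0.06 ± 0.07 in wtATMIN did not pass, and the difference was 0.56 ± 0.10 (adjusted p = 0.000988).

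APH changed a large share of the transcriptome in both lines. In wtATMIN 2505 genes rose (13.6% of those tested) and 2826 fell (15.3%), and in the knock-out 2648 rose (14.3%) and 2927 fell (15.8%). The balance of rises and falls depends on the scaling. With library size alone 3438 rose and 1900 fell in wtATMIN, and 3611 rose and 1911 fell in the knock-out. The lines themselves differed at 9174 genes in DMSO (49.6%) and at 9350 genes in APH (50.6%). The difference of responses was called for 450 genes, or 2.43% of those tested, of which 263 (1.42%) were lower and 187 (1.01%) higher in the knock-out, and 101 differed at least 2-fold. Across all genes the median difference was 0.01.

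**Figure D1:**
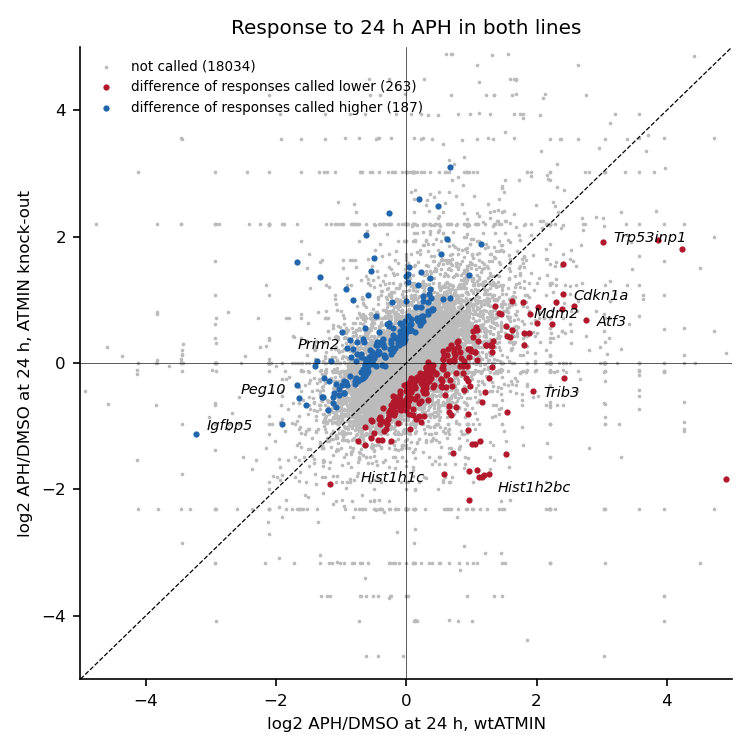
Log2 response to 24 h of APH in wtATMIN (horizontal) and in the ATMIN knock-out (vertical) for 18484 genes, with the 263 genes whose difference of responses was called lower in red and the 187 called higher in blue. The dashed line marks equal responses, and 14 genes with a response beyond 5 log2 units lie outside the frame. Trp53inp1, Cdkn1a, Mdm2 and Atf3 rose in both lines but lie below the line of equality, and the histone genes Hist1h2bc and Hist1h1c rose in wtATMIN and fell in the knock-out.

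The 263 genes that were lower had a median response of 0.34 in wtATMIN and of -0.36 in the knock-out, and the 187 that were higher had medians of -0.32 and 0.34. These values share the libraries that chose the genes and describe them only. The median difference in DMSO, knock-out minus wtATMIN, was 0.49 for the lower and -0.69 for the higher genes, against -0.01 over all genes. The DMSO libraries enter the subtraction that chose the genes, so these medians too describe the called genes only. Unequal levels in DMSO were common, with 49.6% of all genes called between the lines. For 25 of the 450 genes the difference had the opposite sign when the changes were compared in CPM and not as log2 ratios, and the text gives both scales where a named gene was among them.

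Most p53 targets rose in each line, and some of them less in the knock-out. Of 43 tested targets, 33 rose in wtATMIN and 26 in the knock-out, and the difference of responses was called lower for 11 and higher for 0, with a median of -0.31. That is 25.6% of the targets against 2.43% of all genes. Between 9 and 11 targets were called in the 8 fits that each left out 1 of the libraries.

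Cdkn1a, which encodes the p21 inhibitor of cyclin-dependent kinases, was at 6.72 and 5.59 CPM in wtATMIN in DMSO and at 32.3 and 33.3 CPM in APH. In the knock-out it went from 8.06 and 5.43 CPM to 14.2 and 14.6 CPM. The DMSO groups overlapped and both APH values of the knock-out lay below both of wtATMIN. Its mean level rose 5.26-fold in wtATMIN and 2.12-fold in the knock-out, a difference of -1.31 ± 0.25 (adjusted p = 0.00309) that ranged from -1.56 to -0.99 over fits without 1 library and lost its call (adjusted p = 0.0958) without replicate 1 of the knock-out in DMSO. Mdm2, the ubiquitin ligase that degrades p53, was at 62.2 and 62.6 CPM in wtATMIN in DMSO and at 210 and 221 CPM in APH. In the knock-out the values were 46.5 and 43.7 CPM in DMSO and 90.0 and 86.7 CPM in APH. Its level thus rose 3.45-fold in wtATMIN and 1.96-fold in the knock-out, a difference of -0.82 ± 0.09 (adjusted p = 4.27e-07).

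Trp53inp1, a p53 target that promotes cell death, had the largest rise of the named p53 targets, from 8.83 and 9.91 CPM to 74.9 and 76.7 CPM in wtATMIN. The knock-out went from 11.7 and 12.3 CPM to 45.5 and 45.3 CPM, and the difference was -1.10 ± 0.16 (adjusted p = 5.24e-05). Fas, the death receptor, rose from 3.43 and 2.86 to 10.3 and 11.9 CPM in wtATMIN and from 7.29 and 6.95 to 11.1 and 8.48 CPM in the knock-out, with a difference of -1.34 ± 0.26 (adjusted p = 0.0021). The APH values of Fas overlapped between the lines, whereas its DMSO values did not. Aen, which encodes an exonuclease of p53-dependent apoptosis, moved in opposite directions: it rose by 0.29 ± 0.08 in wtATMIN and fell by 0.46 on the log2 scale in the knock-out.

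Other targets began higher in the knock-out. Sesn2, a stress-induced inhibitor of mTORC1 signalling, was at 13.3 and 10.5 CPM in wtATMIN and at 36.8 in both knock-out samples in DMSO. It rose to 37.3 and 37.1 CPM in wtATMIN and to 53.7 and 52.7 CPM in the knock-out, a difference of -1.10 ± 0.16. Perp, a membrane protein of apoptosis and cell adhesion, was at 3.16 and 3.40 CPM against 50.3 and 55.6 CPM in DMSO. It rose to 7.85 and 8.39 CPM in wtATMIN and stood at 62.0 and 57.0 CPM in the knock-out. On the log2 scale its difference was -1.14 ± 0.16, while in CPM the change was 4.84 in wtATMIN and 6.56 in the knock-out, the opposite order. The remaining called targets were Ddit4 at -0.85, Zfp365 at -0.72, Plk2 at -0.53 and Polk at -0.53, and Polk lost its call in 7 of the 8 fits without a library. Trp53, which encodes p53 itself, had a difference of -0.19 ± 0.08 that did not pass (adjusted p = 0.275).

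**Figure D2:**
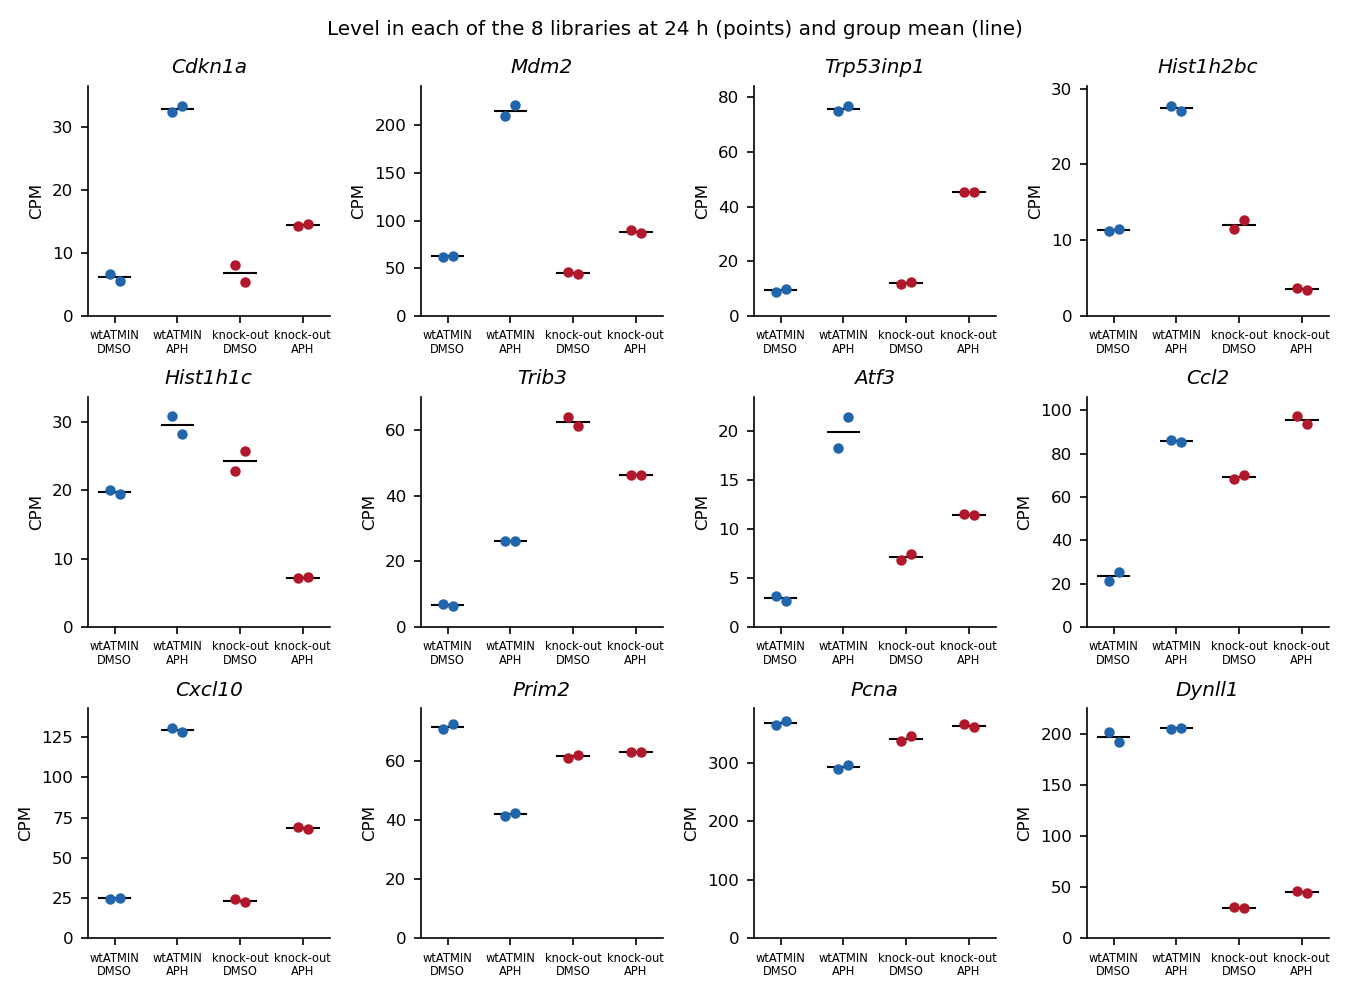
Level in CPM of 12 named genes in each of the 8 libraries, with wtATMIN in blue, the ATMIN knock-out in red and the group mean as a line. Cdkn1a, Mdm2 and Trp53inp1 rose in both lines and ended lower in the knock-out in APH, Hist1h2bc and Hist1h1c moved in opposite directions, Trib3 and Ccl2 began higher in the knock-out, and Prim2 and Pcna fell in wtATMIN.

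The replication-dependent histone genes had the most negative median difference of the pathway lists. They encode the core and linker histones that package new DNA. Of 51 tested, 11 were called lower and 0 higher (21.6%, against 2.43% of all genes), and 42 lay below 0 with a median of -1.35. The summed level of the 51 genes was 66.8 and 58.8 CPM in wtATMIN in DMSO and 95.7 and 96.7 CPM in APH. In the knock-out it was 72.4 and 78.0 CPM in DMSO and 29.0 CPM in both APH samples. The sum, which was not tested, was thus larger in APH than in DMSO in wtATMIN and smaller in the knock-out, with no overlap between the APH groups. Hist1h2bc and Hist1h1c, whose levels are given below, made up much of this change in each line. Most of the list did not rise in wtATMIN, where 9 of the 51 rose and 1 fell, with a median response of -0.00. In the knock-out 0 rose and 17 fell, with a median response of -1.29.

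Hist1h2bc, an H2B gene, went from 11.2 and 11.5 to 27.7 and 27.1 CPM in wtATMIN and from 11.5 and 12.6 to 3.72 and 3.42 CPM in the knock-out. The responses were 1.27 ± 0.13 and -1.75 ± 0.18, and the difference of -3.02 ± 0.22 (adjusted p = 3.21e-11) stayed between -3.08 and -2.95 without any 1 library. Hist1h1c, a linker histone gene, rose from 20.1 and 19.5 to 30.9 and 28.2 CPM in wtATMIN and fell from 22.9 and 25.8 to 7.13 and 7.30 CPM in the knock-out, a difference of -2.33 ± 0.18 (adjusted p = 5.21e-11). These were the most abundant of the called histone genes. Hist1h2ac, Hist1h2bq and Hist1h2br had differences of -2.98, -2.97 and -2.91 at levels of at most 2.66 CPM. Of the 11 called genes 9 lie on chromosome 13, as do 43 of the 51 tested. The near-identical copies among them can share reads, so values of single copies are uncertain. Between 6 and 8 histone genes were called without 1 library, with 6 after leaving out replicate 2 of wtATMIN in DMSO, replicate 2 of wtATMIN in APH, replicate 1 of the knock-out in DMSO or replicate 1 of the knock-out in APH. The library kit selects polyadenylated RNA, and most histone transcripts end in a stem-loop without a poly(A) tail, so the counts hold only the tailed fraction of these RNAs.

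Hist1h2ac and Hist1h2bc are neighbours that are transcribed away from each other. The stretch between them is shown because both genes rose in wtATMIN and fell in the knock-out, with CCAAT boxes, the binding sequence of the factor NF-Y, in capitals on either strand (RefSeq, GRCm38.p6, minus strand, chr13:23683960-23684198).
Hist1h2ac: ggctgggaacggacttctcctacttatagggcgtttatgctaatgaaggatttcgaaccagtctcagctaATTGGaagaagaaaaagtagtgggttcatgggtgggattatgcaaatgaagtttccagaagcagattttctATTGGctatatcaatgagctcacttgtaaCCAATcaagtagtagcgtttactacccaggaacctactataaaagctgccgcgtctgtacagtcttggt
It holds 3 such boxes. CCAAT occurred on either strand in the 250 bases before the start of 37 of the 48 tested histone genes with an entry, and in 37.5% of all 27025 genes.

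In the integrated stress response phosphorylated eIF2α favours translation of ATF4, which switches on amino acid and stress genes. Of 30 tested genes of this and the unfolded protein response, 6 had a lower difference and 0 a higher one, with a median of -0.20, and 4 to 6 did in the fits without a library. Trib3, a pseudokinase induced by ATF4 and DDIT3, was at 7.12 and 6.38 CPM in wtATMIN in DMSO and at 26.3 CPM in both APH samples. The knock-out began at 63.8 and 61.2 CPM and fell to 46.2 CPM in both. All knock-out values lay above all values of wtATMIN, and the difference of -2.39 ± 0.16 (adjusted p = 2.79e-12) joined a rise of 1.95 ± 0.13 to a fall of 0.44 on the log2 scale. Ddit3, which encodes the transcription factor CHOP, followed the same order, from 16.6 and 15.6 to 31.8 and 29.1 CPM in wtATMIN and from 43.1 and 49.1 to 40.3 and 38.0 CPM in the knock-out (difference -1.15 ± 0.14). Chac1, a glutathione-degrading enzyme, had a difference of -1.0 ± 0.16, and Sesn2 belongs to this list too. The 6 called genes are 20% of the list, against 2.43% of all genes. Ppp1r15a (-0.56) and Nupr1 (-0.50) made up the 6, and they lost their calls in 3 and 7 of the 8 fits without a library. Nupr1 gained more CPM in the knock-out, 31.9 against 24.4, despite its smaller fold.

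Immediate-early and AP-1 genes respond within minutes to growth factors and stress. They were lower for 7 of 29 and higher for 0 (24.1%, against 2.43% of all genes), with a median of -0.18. Atf3, a stress-induced member of the ATF family, rose from 3.12 and 2.68 to 18.3 and 21.4 CPM in wtATMIN and from 6.87 and 7.39 to 11.5 and 11.4 CPM in the knock-out. It began higher and ended lower in the knock-out, a difference of -2.07 ± 0.26 (adjusted p = 3.57e-06). Jun (-0.65 ± 0.12), Maff (-0.75 ± 0.15), Klf4 (-0.66 ± 0.13) and Myc (-0.49 ± 0.09) were 4 of the others. Myc, the growth-promoting transcription factor, was at 61.3 and 58.3 CPM and then at 65.1 and 63.5 CPM in wtATMIN, and it went from 75.1 and 76.8 to 58.4 and 57.8 CPM in the knock-out.

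The promoters of Atf3 and Chac1 hold a match to the composite C/EBP-ATF element that ATF4 and its partners bind, and the stretches around it are shown because both genes lay among those with lower differences, with the element (TGATGNAA, either strand) in capitals (RefSeq, GRCm38.p6; Atf3 on the minus strand at chr1:191183411-191183468, Chac1 on the plus strand at chr2:119351024-119351081).
Atf3: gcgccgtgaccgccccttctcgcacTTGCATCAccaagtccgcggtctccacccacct
Chac1: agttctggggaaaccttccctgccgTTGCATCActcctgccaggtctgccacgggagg
The element lay in the 250 bases before the start of 7 of the 26 stress response genes with an entry, of 2 of the 6 that were lower (Chac1 and Nupr1) and of 3.91% of all genes. Trib3, Ddit3, Sesn2 and Ppp1r15a had no match in this window.

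Inflammatory genes under NF-kB were lower for 7 of 30 and higher for 0 (23.3%, against 2.43% of all genes), with a median of -0.41. NF-kB is the transcription factor that DNA damage, cytokines and cytosolic nucleic acids can activate. Ccl2, a chemokine that attracts monocytes, rose from 21.3 and 25.4 to 86.4 and 85.5 CPM in wtATMIN and from 68.2 and 70.1 to 97.3 and 93.5 CPM in the knock-out. It was higher in the knock-out in both treatments, and its difference of responses was -1.42 ± 0.16 (adjusted p = 1.75e-06). Ccl5, a T cell chemokine, rose from 8.35 and 8.33 to 38.9 and 40.2 CPM in wtATMIN and from 61.0 and 58.1 to 90.9 and 91.7 CPM in the knock-out. Its difference was -1.63 ± 0.18 on the log2 scale, while the change in CPM was nearly the same, 31.2 in wtATMIN and 31.8 in the knock-out. Tnfaip3, an inhibitor of NF-kB signalling, had a difference of -1.05 ± 0.15 and Ccl7, another chemokine of monocytes, of -1.02 ± 0.18. Csf1, the growth factor of macrophages, was at 368 and 362 CPM in DMSO and at 378 and 380 CPM in APH in wtATMIN. In the knock-out it fell from 418 and 413 to 275 and 279 CPM (difference -0.64 ± 0.08, adjusted p = 7.78e-06). Il1rn, the interleukin-1 receptor antagonist, fell in both lines, by 1.17 and by 1.91 on the log2 scale, while in CPM it lost more in wtATMIN, where it was more abundant. The kB site, searched as GGANTTTCC on either strand, lay in the 250 bases before the start of 2 of the 4 lower genes with an entry (Tnfaip3 and Csf1), of 9 of the 21 tested members with an entry and of 1.25% of all genes.

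Of 55 tested interferon-stimulated genes, 46 rose in wtATMIN and 39 in the knock-out. The difference was lower for 9 and higher for 2 (20% called, against 2.43% of all genes), with a median of -0.11. Cxcl10, an interferon-induced chemokine, began at 24.3 and 24.9 CPM in wtATMIN and at 24.0 and 22.2 CPM in the knock-out. It reached 131 and 128 CPM and 69.4 and 67.6 CPM in APH, a difference of -0.83 ± 0.13 (adjusted p = 0.000183) from nearly equal starting levels. Ifit1, which binds viral RNA caps, rose from 9.31 and 9.67 to 28.4 and 28.5 CPM in wtATMIN and from 26.7 and 28.9 to 36.9 CPM in both knock-out samples (difference -1.17 ± 0.17).

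Gbp3, an interferon-induced GTPase, rose from 1.49 and 1.52 to 9.14 and 8.74 CPM and, in the knock-out, from 9.91 and 11.6 to 20 and 19.9 CPM. The difference was -1.67 ± 0.24 as a log2 ratio, but the change in CPM was larger in the knock-out, 9.23 against 7.43. Oasl1 (-1.32 ± 0.24), which restrains translation of Irf7, had nearly equal changes in CPM in the 2 lines. Rsad2, the antiviral enzyme viperin, rose from 0.571 and 0.608 to 8.07 and 9.27 CPM and from 2.75 and 2.53 to 9.96 and 10.3 CPM (difference -1.93 ± 0.41), a call lost without replicate 1 of wtATMIN in DMSO (adjusted p = 0.0623). Ifit1, Gbp3, Oasl1 and Rsad2 were thus more abundant in the knock-out in DMSO and rose by fewer fold there, whereas Cxcl10 began level. Ifit3 and Parp9 were the 2 members with a higher difference (0.75 and 0.63); both, named after their values were seen, lost their calls in all 8 fits without a library. Between 5 and 7 members were lower in those fits, with 5 without replicate 1 or replicate 2 of wtATMIN in DMSO or replicate 1 of wtATMIN in APH, and 6 without replicate 1 or 2 of the knock-out in either treatment. Of 18 sensors of cytosolic nucleic acids and their partners, Tmem173, which encodes STING, was the 1 gene called (-0.80 ± 0.17). That is 5.56%, against 2.43% of all genes. Without replicate 2 of wtATMIN in DMSO, Tmem173 was at -0.55 and lost its call.

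Interferon acts through a sequence bound by the STAT and IRF factors, whose core was searched as GAAANNGAA on either strand in the 250 bases before the start. It was found for 8 of the 9 interferon-stimulated genes that were lower, for 18 of the 42 tested members with an entry and for 8.18% of all genes. The stretches around the matches are shown with the core in capitals (RefSeq, GRCm38.p6; Ifit1 plus strand chr19:34640755-34640838, Rsad2 minus strand chr12:26456538-26456596, Gbp3 plus strand chr3:142559975-142560039, Cxcl10 minus strand chr5:92349069-92349127, Isg15 minus strand chr4:156200851-156200921).
Ifit1: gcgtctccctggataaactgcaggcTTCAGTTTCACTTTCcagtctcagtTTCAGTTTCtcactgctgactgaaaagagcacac
Rsad2: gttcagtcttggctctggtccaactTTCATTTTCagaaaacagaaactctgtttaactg
Gbp3: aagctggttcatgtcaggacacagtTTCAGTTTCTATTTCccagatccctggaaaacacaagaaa
Cxcl10: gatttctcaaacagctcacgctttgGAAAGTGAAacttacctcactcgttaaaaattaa
Isg15: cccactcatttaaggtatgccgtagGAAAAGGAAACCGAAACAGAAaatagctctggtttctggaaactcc
Ifit1 and Isg15 each held 3 overlapping or neighbouring matches and Gbp3 held 2. A match describes these letters only and is no measure of binding. Isg15, a ubiquitin-like protein, had a difference of -0.64 ± 0.15 and lost its call in 5 of the 8 fits without a library.

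Genes of DNA replication moved the other way. Of 47 replication and E2F target genes, 9 were higher and 0 lower (19.1%, against 2.43% of all genes). Of the 47, 45 lay above 0, and the median was 0.24. Prim2, the large subunit of the primase that starts each new strand, fell from 70.5 and 72.5 to 41.4 and 42.3 CPM in wtATMIN. In the knock-out it was at 61.0 and 62.0 CPM in DMSO and at 62.9 and 63.0 CPM in APH. It fell by 0.77 on the log2 scale in wtATMIN, the knock-out's 0.03 ± 0.08 did not pass, and the difference of 0.81 ± 0.12 (adjusted p = 4.62e-05) was the largest of the 47. Pcna, the sliding clamp of the replicative polymerases, fell from 364 and 371 to 290 and 297 CPM in wtATMIN and went from 338 and 345 to 366 and 361 CPM in the knock-out (0.42 ± 0.08, adjusted p = 0.0019). Rrm2, the small subunit of ribonucleotide reductase, rose in both lines, by 0.39 ± 0.06 and 0.84 ± 0.06. Slbp, which binds the histone stem-loop and supports translation of histone transcripts, had a difference of 0.50 ± 0.11, opposite in sign to the histone genes themselves, and Ccne1, cyclin E1, of 0.50 ± 0.11. Slbp and Ccne1 lost their calls in 3 and 2 of the 8 fits without a library. The number of higher members ranged from 4 to 8 in those fits and was 4 without replicate 2 of wtATMIN in APH, 5 without replicate 2 of the knock-out in DMSO and 6 without replicate 2 of wtATMIN in DMSO or replicate 1 of the knock-out in DMSO or in APH.

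In the fit of all 32 samples the calls in the repair and checkpoint lists were all higher. A fit of the 8 compared libraries alone had 7 higher and 1 lower in the checkpoint list, and 2 higher and 1 lower in the end-joining list. Among 35 genes of homologous recombination and the Fanconi pathway 2 were higher and 0 lower (5.71%, against 2.43% of all genes), with a median of 0.24. They were Dna2, a nuclease that resects DNA ends (0.62 ± 0.13), and Mre11a, a nuclease of the break sensor complex (0.43 ± 0.11). Among 25 genes of the ATR, ATM and checkpoint pathways 2 were higher and 0 lower (8%). They were Clspn, the adaptor through which ATR activates CHK1 (0.46 ± 0.09), and Cdc7, the kinase that fires origins (0.53 ± 0.12). Of 13 end-joining genes, Paxip1 (0.39) and Polq (0.49) were higher (15.4%), while 6 of the 13 lay below 0 and 7 above, with a median of 0.10. Each of these shares rests on 2 genes. Dna2 and Clspn kept their calls in all 8 fits without a library, whereas Mre11a and Polq lost theirs in all 8, Paxip1 in 7 and Cdc7 in 4. Atm (0.19 ± 0.19, adjusted p = 0.774), Chek1 (0.10 ± 0.15), Npat (0.25 ± 0.14) and Dynll2 (-0.14 ± 0.11) did not pass, nor did H2afx (-0.41 ± 0.13, adjusted p = 0.0913), Dpysl2 (0.40 ± 0.36) or Atmin (-0.18 ± 0.18).

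Mitotic genes were called for 4 of 49 (8.16%, against 2.43% of all genes), all lower, with a median of -0.05. Of the 49, 29 lay below 0 and 20 above. A fit of the 8 compared libraries alone called 11 lower and 4 higher. Cdc20, the activator of the anaphase-promoting complex, was at 196 and 182 CPM and then 196 and 189 CPM in wtATMIN, and it fell from 203 and 198 to 133 and 131 CPM in the knock-out (difference -0.63 ± 0.10, adjusted p = 0.000107). Aurka and Plk1, kinases of the mitotic spindle, had differences of -0.44 ± 0.09 and -0.45 ± 0.09, and Cdc25b, a phosphatase that activates CDK1, of -0.38 ± 0.10. The calls of Plk1 and Cdc25b were lost in 2 and 6 of the 8 fits without a library, and 2 of the 4 were called without replicate 2 of wtATMIN in DMSO. In each line most of the list rose, 38 members in wtATMIN and 33 in the knock-out.

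**Figure D3:**
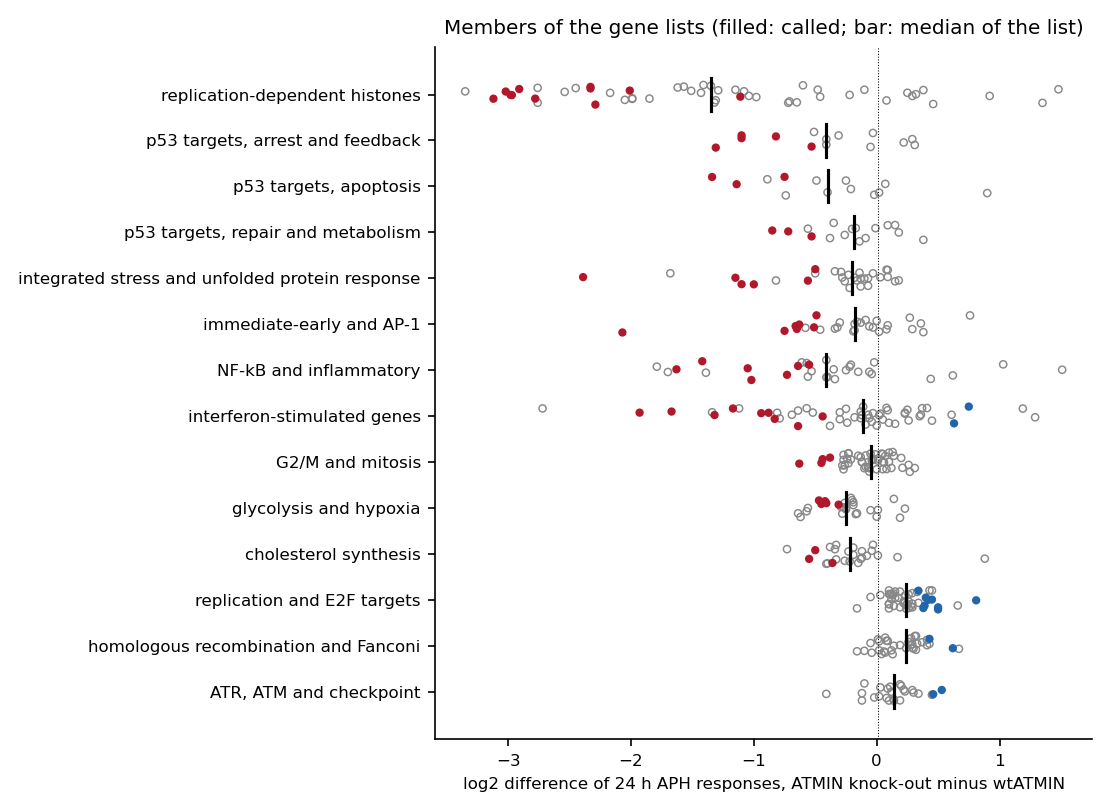
Log2 difference of 24 h APH responses (knock-out minus wtATMIN) for every tested member of 14 gene lists, with called members filled (red lower, blue higher), the median of each list as a bar and the median of all genes as a dotted line. The histone list has a median of -1.35, and the replication and recombination lists lie to the right with medians of 0.24.

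In the fit of all 32 samples the calls in the glycolysis, cholesterol and lysosome lists were all lower. Glycolysis and hypoxia genes had 5 of 27 lower (18.5%, against 2.43% of all genes) with a median of -0.25, and among them Pgam1, phosphoglycerate mutase, fell by 0.20 in wtATMIN and by 0.61 in the knock-out on the log2 scale. Aldoa (-0.47), Gpi1 (-0.42), Vegfa (-0.45) and Tpi1 (-0.31) were the others, and 1 to 3 of the 5 were called in the fits without a library. Vegfa and Tpi1 lost their calls in all 8, Gpi1 in 4 and Aldoa without replicate 2 of wtATMIN in DMSO. Cholesterol synthesis had 3 of 25 (12%) lower (Mvd, Lss and Sqle, with a list median of -0.22) and lysosome and autophagy genes 3 of 29, or 10.3% (Sqstm1, Ctsl and Gla, median -0.08), and each of these 6 lost its call without at least 1 library. Gclc, which limits glutathione synthesis, was the 1 of 20 NRF2 targets called (5%, against 2.43% of all genes) and was higher (0.53 ± 0.10). Of 21 YAP/TAZ targets (14.3% called) Ccn2 was higher (0.48) and Tgfb2 (-0.58) and Amotl2 (-0.45) lower. None of these kept its call in every fit without a library.

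Matrix and contractile genes were called in both directions, 2 higher and 3 lower of 31 and 1 higher and 2 lower of 22. These are 16.1% and 13.6%, against 2.43% of all genes. Col3a1, a fibrillar collagen of connective tissue, fell from 532 and 524 to 218 and 216 CPM in wtATMIN and from 2316 and 2248 to 1588 and 1582 CPM in the knock-out. The log2 difference was 0.75 ± 0.10 (adjusted p = 9.48e-06), yet the level fell by 698 CPM in the knock-out and fell by 311 CPM in wtATMIN. Fmod, a collagen-binding proteoglycan, had a difference of 1.21 ± 0.20. Thbs1, an adhesive matrix glycoprotein, fell from 2764 and 2677 to 1533 and 1543 CPM in the knock-out and went from 1480 and 1485 to 1338 and 1258 CPM in wtATMIN (difference -0.63 ± 0.11). Timp1 and Timp3, inhibitors of matrix proteases, were at -0.39 each and lost their calls in 4 and 6 of the 8 fits. Acta2, smooth muscle actin, was at 0.48 ± 0.09, though its level fell by 62.7 CPM in the knock-out and fell by 56.3 CPM in wtATMIN. The focal adhesion genes Actn1 and Zyx were at -0.44 and -0.51 with calls lost in 5 and 6 fits. None of the 11 tested fibroblast markers was called.

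Beside list members, the 15 largest positive differences that kept their call in all 8 fits without a library belonged mostly to genes that fell in wtATMIN. Igfbp5, a binding protein of insulin-like growth factors, fell from 4.74 and 5.41 to 0.695 and 0.354 CPM in wtATMIN and from 3.11 and 3.47 to 1.57 and 1.41 CPM in the knock-out (difference 2.09 ± 0.41, adjusted p = 0.00191). Peg10, an imprinted gene derived from a retrotransposon, fell from 261 and 280 to 87.1 and 84.9 CPM in wtATMIN and from 71.0 and 65.1 to 46.0 and 46.7 CPM in the knock-out (1.10 ± 0.12). The imprinted non-coding RNA H19 fell from 34.0 and 35.5 to 13.7 and 13.2 CPM in wtATMIN and stayed between 4.24 and 4.77 CPM in the knock-out (1.40 ± 0.20). Csrp2, a LIM protein of smooth muscle, fell from 148 and 134 to 59.9 and 58.4 CPM against 54.7 and 57.4 to 48.1 and 47.2 CPM (1.02 ± 0.11). In these 4 genes the log2 change was more negative in wtATMIN, and the DMSO level was also higher there. Nhsl2 (2.0), Ggt7 (1.33), Col2a1 (1.20), Armcx4 (1.06), Fbxo48 (0.99), Enpp4 (0.98), Mterf4 (0.90), Flrt2 (0.85) and Dscc1 (0.78), a subunit of the clamp loader of sister chromatid cohesion, completed the highest 15 with Fmod and Prim2. Ggt7 gained 4.28 CPM in the knock-out and 11.5 CPM in wtATMIN despite its larger fold in the knock-out.

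Among the 15 most negative were, beside genes already described, Slc37a2, a sugar phosphate transporter (-1.79 ± 0.26), H2-Q6, an MHC class I gene (-1.51 ± 0.19), Lhfpl2 (-1.43 ± 0.16), Ccl9, a chemokine (-1.39 ± 0.28), and Wnt9a, a Wnt ligand (-1.38 ± 0.28). H2-Q6 rose from 18.3 and 18.1 to 43.4 and 44.5 CPM in wtATMIN and went from 5.79 and 6.19 to 5.56 and 4.53 CPM in the knock-out. MHC class I, Gbp, Oasl and chemokine genes have close copies that can share reads. Lhfpl2 rose from 7.51 and 7.72 to 12 CPM in both samples of wtATMIN and fell from 22.6 and 22.8 to 14.0 and 12.5 CPM in the knock-out, so the groups moved toward each other.

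The same subtraction in the ATM pair shares no library with the ATMIN pair. It called 724 genes (3.92%), 496 higher (2.68%) and 228 lower (1.23%). Of the 263 genes lower in the ATMIN pair, 15 were also lower in the ATM pair (5.70% of 263 and 6.58% of the 228 lower there), while 37 were higher there (14.1% of 263 and 7.46% of 496). Of the 187 higher genes 23 were higher in both (12.3% of 187 and 4.64% of 496), while 3 were lower there (1.6% of 187 and 1.32% of 228). The test of the difference between both pairs called 497 genes (2.69%), 362 of them lower in the ATMIN pair.

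That test called 11 of the 43 p53 targets lower in the ATMIN pair and 0 higher, against 2.69% of all genes called in either direction. Mdm2 had a difference of responses of -0.13 ± 0.09 in the ATM pair, and the pairs differed by -0.69 ± 0.13 (adjusted p = 0.000892). For Cdkn1a the ATM pair had -0.24 ± 0.18 and the pairs differed by -1.07 ± 0.31, which missed the threshold (adjusted p = 0.0614). It was called with DESeq2, with library size scaling, without the filter on low counts and with the compared groups alone, and also without replicate 2 of the ATMIN knock-out in DMSO. Of 30 NF-kB genes 15 were lower in the ATMIN pair and 0 higher, and in the ATM pair alone 12 had been higher. Ccl2 was at 1.6 ± 0.25 in the ATM pair (difference -3.03 ± 0.30, adjusted p = 5.34e-08), and Cxcl10 was at 3.13 ± 0.30 (difference -3.96 ± 0.33). Ccl5 differed by -3.06 ± 0.54 between the pairs but by only -1.16, with no call, without replicate 1 of wtATM in DMSO. Rsad2 differed by -5.20 ± 1.11, and without replicate 2 of wtATM in DMSO it differed by -3.70 and was not called.

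Histone and stress genes differed between the pairs too. Hist1h2bc was at 1.32 ± 0.39 in the ATM pair and Hist1h1c at 0.89 ± 0.24, so that the pairs differed by -4.33 ± 0.47 (adjusted p = 1.12e-07) and -3.22 ± 0.31 (adjusted p = 6.99e-09). Trib3 was at 0.27 ± 0.17 and Atf3 at 0.31 ± 0.34, with differences between the pairs of -2.66 ± 0.24 and -2.38 ± 0.43. Dynll1 differed by 0.60 ± 0.14 and Fmod by 2.06 ± 0.33. Nhsl2 differed by 2.53 ± 0.59, a call lost in 5 of 16 fits without a library: those without replicate 2 of wtATM in DMSO, either replicate of wtATM in APH or either replicate of the ATMIN knock-out in DMSO. Sytl1, a synaptotagmin-like protein, and Krt16, a keratin, had the most negative differences between the pairs among called genes with a mean log2 CPM of at least 1, -6.92 ± 1.26 and -8.92 ± 1.21. In the ATM pair they stood at 5.38 ± 1.28 and 10.08 ± 0.62, and their levels in the groups of that pair are not given here. In the ATMIN pair Krt16 was at 1.16 ± 0.53 with no call and Sytl1 at -1.54 ± 0.39, a call lost in 5 of the 8 fits without a library. Of the 47 replication genes 11 were higher in the ATM pair too, with a median of 0.27, and the test between the pairs called 1 of the 47, Rrm2, which was higher in the ATMIN pair.

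**Figure D4:**
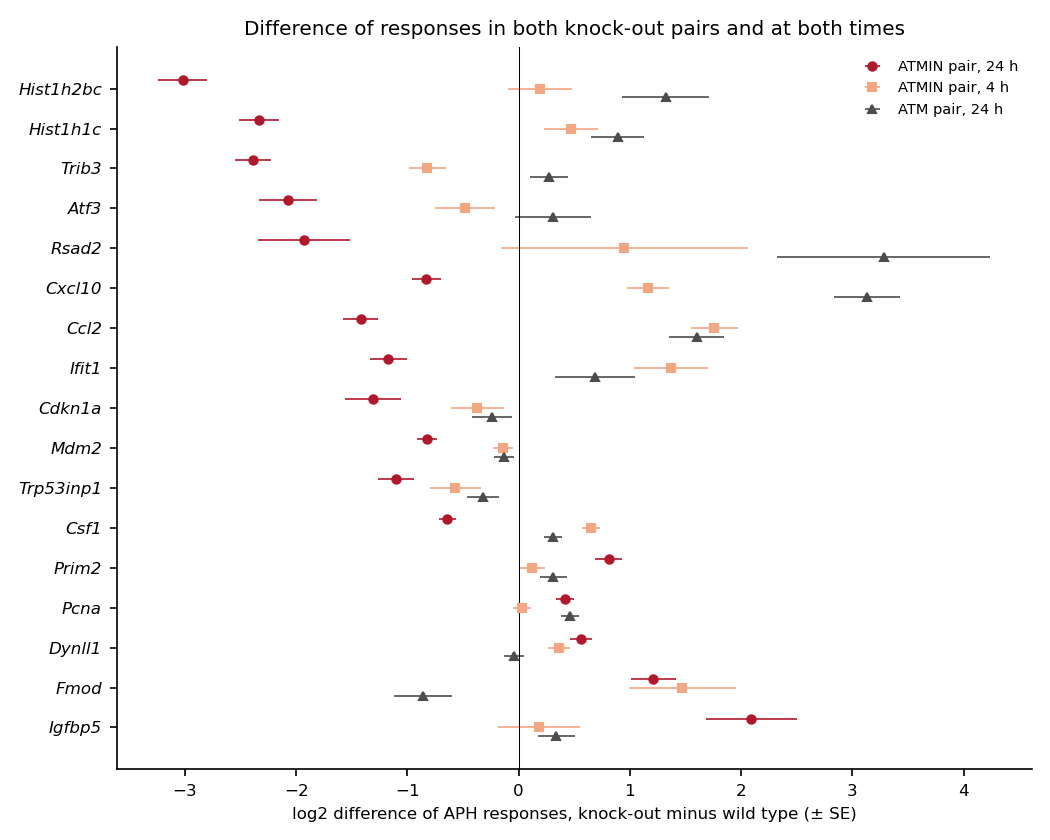
Log2 difference of APH responses (knock-out minus wild type, ± SE) for 17 named genes in the ATMIN pair at 24 h (red circles), the ATMIN pair at 4 h (orange squares) and the ATM pair at 24 h (grey triangles). Hist1h2bc, Cxcl10 and Ccl2 lie on opposite sides of 0 in the ATMIN pair and the ATM pair at 24 h, and Mdm2 lies near 0 except in the ATMIN pair at 24 h.

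At 4 h the difference of responses in the ATMIN pair was called for 124 genes (0.671%). The test of 24 h against 4 h called 258 genes (1.40%), 168 of them lower at 24 h. It called 12 of 30 NF-kB genes, 8 of 55 interferon-stimulated genes, 7 of 51 histone genes and 5 of 43 p53 targets, all lower at 24 h. Ccl2 was at 1.76 ± 0.21 at 4 h and Ccl7 at 1.94 ± 0.30, so the sign of the difference turned from positive at 4 h to negative at 24 h (change -3.18 ± 0.26, adjusted p = 5.52e-09, and -2.95 ± 0.35, adjusted p = 7.49e-07). Oasl1 (1.66 ± 0.32 at 4 h, change -2.98 ± 0.40) and Ifit1 (1.37 ± 0.33 at 4 h, change -2.55 ± 0.37) turned likewise.

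Hist1h2bc was at 0.19 ± 0.29 at 4 h and changed by -3.21 ± 0.37 (adjusted p = 5.06e-07). Hist1h2bq changed by -3.50 ± 0.84, a call lost in 6 of 16 fits without a library. Trib3 was already lower at 4 h (-0.82 ± 0.17) and changed by a further -1.57 ± 0.24. Mdm2 was at -0.14 ± 0.09 at 4 h and changed by -0.68 ± 0.13 (adjusted p = 0.00325), and Atf3 changed by -1.59 ± 0.38, a call lost in 6 of 16 fits without a library. For Cdkn1a the change of -0.94 ± 0.35 did not pass (adjusted p = 0.224), but it did without the filter on low counts and with the compared groups alone.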

How the data were processed

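The authors deposited unnormalised read counts by Ensembl gene ID for all 32 samples. The submitters' processing notes name build mm10 and the tools TopHat2 (2.0.13), Bowtie2 (2.4.0) and DESeq2 (1.6.3), without their roles. The counting tool, strand setting and annotation release are not given in the sources used here, so reads of overlapping or antisense genes cannot be told apart. The authors' 10 tables of comparisons were not used. Columns named AT and UT were read as APH and DMSO.

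Counts were fitted with edgeR 4.0.16 in R 4.3.3 (filterByExpr, TMM, glmQLFit with robust set, glmQLFTest) on all 32 samples in 16 groups. The fit was also run on counts simulated from its own fitted means and spread, except in the ATMIN knock-out in APH at 24 h. That group was given the response of wtATMIN, with known differences added for some genes. Such counts hold no deviating sample, so that run cannot show how the test handles one. CPM use TMM-scaled library sizes, except the sums over cell type markers, which use raw totals. Symbols and positions come from GENCODE M21 on GRCm38, the build of mm10. Of 713 list entries 704 matched a gene. The 29 gene lists, the comparisons and the rule for named genes were chosen with earlier results of these data known. The rule takes 11 fixed genes, the 15 largest and 15 smallest differences with a mean log2 CPM of at least 1 that were called in all 8 fits without 1 library, up to 5 members per list by p, and the 5 largest and 5 smallest differences from the ATM pair and from 4 h; some are left out for length. Alternatives were RLE scaling, library size only, no filter, a replicate block, DESeq2 1.42.0, the compared groups alone and leaving out each library.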

Additional observations from a re-analysis of the deposited data

Results flagged for a closer look

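The responses of both lines differed at 450 genes, the ATMIN pair differed from the ATM pair at 497 genes and 24 h differed from 4 h at 258 genes, each by a test of the difference itself in edgeR's quasi-likelihood model. Against the ATM pair, the differences (ATMIN pair minus ATM pair, log2) were -4.33 for Hist1h2bc, -3.22 for Hist1h1c, -8.92 for Krt16, -6.92 for Sytl1, -5.20 for Rsad2, -3.96 for Cxcl10, -3.06 for Ccl5, -3.03 for Ccl2, -2.66 for Trib3, -2.38 for Atf3 and -0.69 for Mdm2. Those of Dynll1 (0.60), Fmod (2.06) and Nhsl2 (2.53) were positive. The calls of Ccl5, Rsad2 and Nhsl2 were not kept in every fit without 1 library. Against 4 h, the changes (24 h minus 4 h, log2) were -3.50 for Hist1h2bq, -3.21 for Hist1h2bc, -3.18 for Ccl2, -2.98 for Oasl1, -2.95 for Ccl7, -2.55 for Ifit1, -1.59 for Atf3, -1.57 for Trib3 and -0.68 for Mdm2. Of these, Hist1h2bq and Atf3 lost their calls in some fits without 1 library. Groups of 2 were not tested for single samples that stand apart, but the 2 samples of wtATMIN in DMSO differed most from each other (chi-square per degree of freedom 5.08, against 1.85 to 2.37 in the other groups), and the calls numbered 327 without the first of them and 217 without the second.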

How the results depend on the processing

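The 450 genes with a difference of responses became 446 with RLE size factors, 392 with library size alone, 529 without the filter on low counts and 443 with DESeq2. With a fit of the 8 compared libraries alone the count was 1515, with 839 higher and 676 lower. In that fit 20 p53 targets were lower and 2 higher, and 13 interferon-stimulated genes were lower and 6 higher. Glycolysis and hypoxia genes had 9 lower and 1 higher. Histone genes had 12 lower and 0 higher, and replication genes 25 higher and 0 lower. Without the filter 52.9% of the calls were higher, and with the compared libraries alone 55.4%, against 41.6%. Leaving out 1 library gave 217 (without replicate 2 of wtATMIN in DMSO) to 327 genes (without replicate 1 of it), and 142 genes were called in all 8 such fits. Leaving out any other library gave 239 to 269. The comparison with the ATM pair gave 1022 genes with the compared groups alone and 297 (without replicate 2 of the ATM knock-out in DMSO) to 531 (without replicate 2 of wtATM in APH) without 1 library. The comparison with 4 h gave 410 without the filter, 616 with the compared groups alone and 144 (without replicate 1 of wtATMIN in APH at 4 h) to 433 (without replicate 1 of wtATMIN in DMSO at 4 h) without 1 library. The cause was not tested. A replicate block gave 430 genes and changed the call of no named gene. Deviations of same-numbered samples correlated at -0.11 to 0.09, so the numbers were not taken as pairs. Of 109 named genes, 9 lost their call with library size alone, 6 without the filter and 5 with DESeq2, and Dpysl2 and H2afx gained one with the compared groups alone.

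With 2 samples a group the median SE of a difference of responses was 0.19, and 2355 genes passed an unadjusted p of 0.05. Low-count genes such as the single histone copies carry wide errors.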
